A study of Homo sapiens with 23 samples.

Results

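Replication start sites mapped after replication stress were compared with those of cells with no stress treatment named in their labels. The comparison covered where the sites lay, how far apart they were and how they were grouped along the chromosomes. HCT116, an established colon carcinoma cell line, was the source of both libraries. The stressed sample was wild-type HCT116 given 200 nM aphidicolin for 24 h and then released from the drug for 24 h. The sample set against it was an HCT116 line depleted of SIRT1, a NAD-dependent deacetylase, in which wild-type SIRT1 had been restored (called the rescue below), with no aphidicolin named in its labels. The 2 samples therefore differed in drug, in genetic history and possibly in culture, and these cannot be told apart, because no untreated wild-type nascent-strand library was analysed here. How SIRT1 was depleted, and whether the rescue line was 1 clone, is not given in the sources used here. Every region on chromosomes 1 to 22 and X that the authors had called as enriched in nascent strands was taken, and a region counted as shared where it overlapped a region of the other list by at least 1 bp. This gave 96993 regions after aphidicolin and 74479 in the rescue, of 385436 in the 4 nascent-strand lists of HCT116. The other 2 of these lists came from the SIRT1-depleted line and from that line with the mutant SIRT1 T530A restored. In this mutant alanine replaces the threonine, so the site cannot be phosphorylated.

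The series holds 23 samples from HCT116 and from the leukaemia line K562, each a group of 1 library. There were no replicates, so all differences below are between libraries and carry no p-value. Intervals are 95% exact (Clopper-Pearson) binomial intervals, or order-statistic intervals for medians. They cover counting error only, not the spread between cultures. The regions after aphidicolin held 13701955 listed reads and those of the rescue 14970644. The depth of the libraries outside the listed regions is unknown. The first 50 Mb of chromosome 5 and chromosome 21 stood apart in the rescue, so several values that rest on them are given with and without both chromosomes.

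Human chromosomes are copied from many origins, at which helicases (the MCM complex) are loaded in excess during G1 and only some are used in a given S phase. Unused, dormant origins can fire when forks slow. Aphidicolin inhibits the replicative DNA polymerases, and low doses slow forks, bring dormant origins into use and cause breaks at common fragile sites. Nascent strands are short, newly made DNA molecules from around start sites. They resist λ-exonuclease because they still carry an RNA primer, so their enrichment over sheared genomic DNA marks places where replication began in some cells of the population. A library of this kind gives no distance between origins used on one DNA molecule, and spacing below is that of called regions over a whole population of cells.

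More and narrower regions were called after aphidicolin. There were 1.30 times as many as in the rescue (1.29 to 1.31). Each of the 20 autosomes other than 5 and 21 had more regions after aphidicolin, from 1.27 times on chromosome 20 to 1.47 times on chromosome 4. The median region was 2400 bp wide after aphidicolin and 3800 bp in the rescue. It held 101 reads against 138 and had 43.1 reads per kb against 39.1. Because of the narrower regions, the order turned with the measure. The regions covered 314.3 Mb after aphidicolin and 372.0 Mb in the rescue, a ratio of 0.845. Among regions with at least 138 reads, the rescue median, there were 30946 after aphidicolin and 37527 in the rescue, a ratio of 0.825. With at least 39.1 reads per kb there were 67335 and 37329, a ratio of 1.80. The weakest listed region held 25 reads after aphidicolin and 31 in the rescue. The part of depth and of calling in these numbers was not tested.

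Sites seen after aphidicolin were in part those of the rescue list. Of the 96993 regions, 54585 (56.3%, 56.0 to 56.6%) overlapped a rescue region and 42408 did not. Of the 74479 rescue regions, 49188 (66.0%, 65.7 to 66.4%) overlapped an aphidicolin region and 25291 did not. The shared regions held 70.1% of the listed reads after aphidicolin and 76.3% of those in the rescue. The length common to both lists was 173.9 Mb, which was 55.3% of the length covered after aphidicolin and 46.8% of that covered in the rescue. At the edge of the rule, 348 aphidicolin regions shared 200 bp or less with a rescue region (median width 2100 bp, 83 reads). Another 312 missed one by 200 bp or less (2400 bp, 93.5 reads).

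The sharing rose with width. Of regions up to 1 kb wide, 37.3% of the aphidicolin list and 53.4% of the rescue list were shared. From 1 to 3 kb the shares were 47.7 and 56.2%, and from 3 to 10 kb they were 73.0 and 69.5%. Over 10 kb, 93.9 and 89.9% were shared. Without chromosomes 5 and 21 the shares were 72.4 and 72.8% from 3 to 10 kb, and 94.0 and 93.0% over 10 kb. By their medians, the aphidicolin regions found alone measured 2000 bp and held 80 reads, and the shared ones 3000 bp and 128 reads. Per kb they differed little, with 42.2 reads in regions alone and 43.6 in shared regions. In the rescue the regions alone measured 3000 bp and held 37.9 reads per kb, and the shared ones 4200 bp and 39.7.

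**Figure D1:**
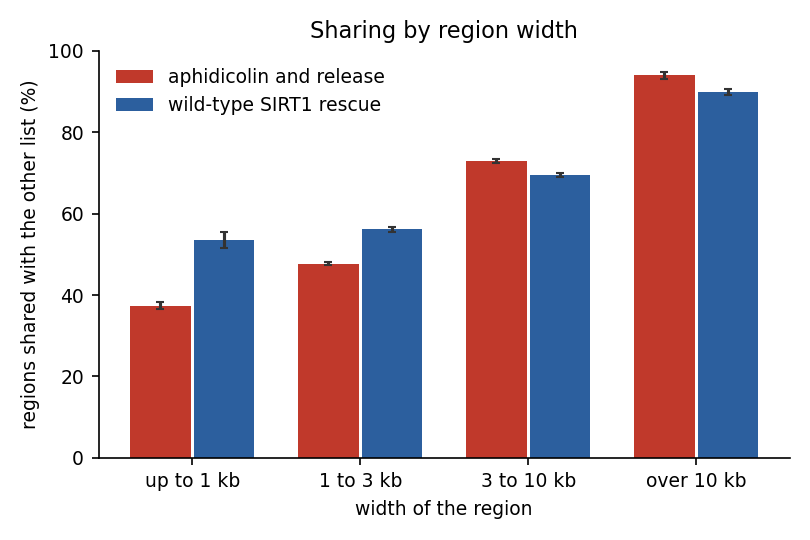
Share of regions (%) that overlapped the other list by at least 1 bp, by width of the region, for the aphidicolin list and the rescue list. Bars are shares and whiskers are 95% exact binomial intervals. Below 3 kb the rescue list was shared more often, and above 3 kb the aphidicolin list was. Without chromosomes 5 and 21, which is not drawn, the shares from 3 to 10 kb were 72.4% (aphidicolin) and 72.8% (rescue).

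A single wide rescue region often lay over several aphidicolin regions. Of the shared rescue regions, 7650 (15.6%) overlapped at least 2 aphidicolin regions, and of the shared aphidicolin regions 3561 (6.52%) overlapped at least 2 rescue regions. Within classes of width the asymmetry was smaller in proportion but of the same direction. Among shared regions over 10 kb, 53.9% of the rescue list and 36.5% of the aphidicolin list overlapped at least 2 of the other, and from 3 to 10 kb the shares were 15.7 and 10.1%. Rescue regions could still be the wider within a class, and the aphidicolin list had 1.30 times as many regions to be met, and the part of both was not tested. The rescue region that met most aphidicolin regions was chr17:43792201-43852800 (hg19), 60.6 kb wide, with 8 of them. In 36385 places 1 region of each list met 1 of the other. There the aphidicolin region was the narrower in 62.9% and the wider in 31.2%, with median widths of 2800 and 3800 bp.

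Neighbouring sites lay closer together after aphidicolin. The median distance between the middles of neighbouring regions was 14.6 kb (14.5 to 14.8) after aphidicolin and 17.2 kb (17.1 to 17.4) in the rescue. Distances across runs of over 1 Mb with no region in either list were left out. The middle 50% of distances ran from 7.3 to 31.2 kb after aphidicolin and from 8.9 to 37.6 kb in the rescue. The longest 5% began at 95.4 and 130.4 kb. The distances varied by 1.55 times their mean after aphidicolin and by 1.75 times in the rescue (coefficient of variation). Measured from the end of a region to the start of the next, the medians were 11.0 and 11.4 kb, a smaller difference than between middles. Without chromosomes 5 and 21, which stood apart as described below, these gaps were 11.0 and 13.0 kb, and the distances between middles 14.6 and 18.4 kb. For comparison, the SIRT1-depleted line had a median of 11.7 kb between middles and the T530A rescue 13.0 kb, and both of those lists were longer than the aphidicolin list.

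**Figure D2:**
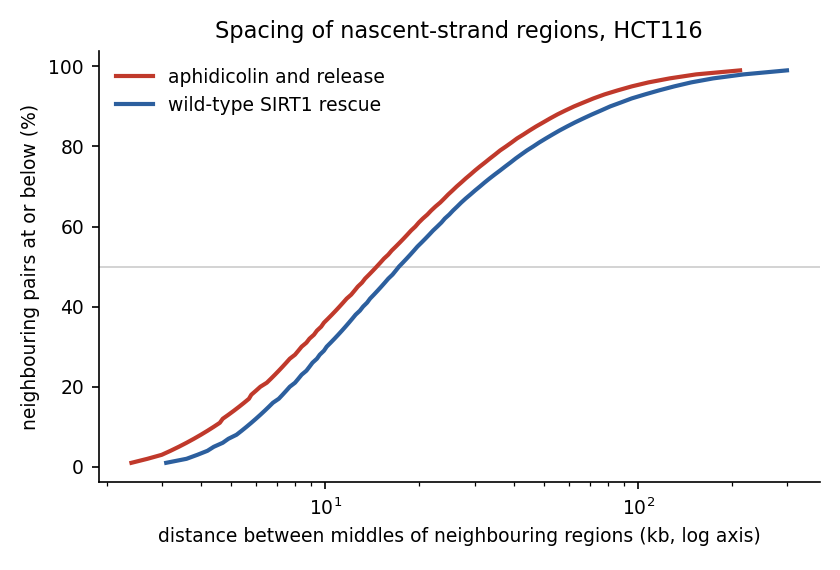
Distance between the middles of neighbouring regions (kb, log axis) against the percentage of neighbouring pairs at or below it, for the aphidicolin list and the rescue list. The grey line marks the median, which was 14.6 kb after aphidicolin and 17.2 kb in the rescue, and the aphidicolin curve lies to the left over the plotted percentiles.

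This difference in spacing went with the number of regions. When the aphidicolin list was cut to its 74479 regions with most reads, which held at least 68 reads each, its median spacing was 17.3 kb against 17.2 kb in the rescue. With chromosomes 5 and 21 left out as well, 65752 regions a list gave 17.8 and 18.4 kb. The ratio was then 0.967. Equal numbers on the same chromosomes bring the mean spacings close, and only the aphidicolin list was cut. This cut therefore cannot show whether the closer spacing held among stronger regions. With at least 39.1 reads per kb in both lists, which left 67335 and 37329 regions, the ratio of median spacings was 0.676. That limit left 1.80 times as many regions after aphidicolin, so it cannot show this either.

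Long stretches without a site were fewer after aphidicolin. Gaps over 250 kb numbered 612 and covered 227.5 Mb, against 1088 and 448.0 Mb in the rescue. Gaps over 500 kb numbered 83 and 213. Of the 1088 stretches free of rescue regions, 1013 (93.1%) held at least 1 aphidicolin region, and 3987 aphidicolin regions lay in them, or 8.90 per Mb. Of the 612 stretches free of aphidicolin regions, 397 (64.9%) held a rescue region, at 4.59 per Mb, or 3.18 per Mb without chromosomes 5 and 21. Over all chromosomes used, density was 32.0 regions per Mb after aphidicolin and 24.5 in the rescue, so both kinds of stretch were sparsely filled. The aphidicolin list also had 1.30 times as many regions, and the part of this was not tested. At equal list lengths the numbers of stretches over 250 kb were 1087 and 1088, and without chromosomes 5 and 21 they were 1076 and 1012. Equal numbers of regions bring such counts close, so this cut cannot show whether the difference held among stronger regions. With at least 39.1 reads per kb in both lists, the ratio of these numbers was 0.520. That limit left 1.80 times as many regions after aphidicolin, so it cannot show this either.

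The stretches filled most after aphidicolin were filled in the other lines as well. The longest of the 5 with most aphidicolin regions, chr2:81941401-83043000, was free of rescue regions over 1101.6 kb and held 14 aphidicolin regions, 16 in the depleted line and 5 in the T530A rescue. On chromosome 6, 104530401 to 105403800, a stretch of 873.4 kb held 13 aphidicolin regions, 13 in the depleted line and 17 in the T530A rescue. The stretch chr3:72790201-73204000 held 14 aphidicolin regions over 413.8 kb, with 9 and 8 in those lists. Conversely, the 5 stretches free of aphidicolin regions that held most rescue regions all lay in the first 50 Mb of chromosome 5. The first of them, chr5:29729401-30489400, held 70 rescue regions, 19 in the depleted line and 91 in the T530A rescue.

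How the 2 lists compared in clustering depended on the measure. A cluster was a run of at least 2 regions whose end-to-start gaps were at most 10 kb. After aphidicolin 68.8% of regions lay in 20594 clusters, and in the rescue 66.6% lay in 14546. The remaining 30222 and 24899 regions stood alone. The difference of 2.27 percentage points was 4.65 without chromosomes 5 and 21 (69.1 and 64.4%), 4.47 with regions within 1 kb merged and 3.64 with gaps of at most 20 kb. It was -0.83 points with gaps of at most 5 kb, -2.44 at equal list lengths and -5.11 when the aphidicolin gap was shortened to 7.70 kb, in proportion to its mean spacing. Neither list was thus the more clustered in every measure. In the depleted line 74.9% of regions were in clusters, and in the T530A rescue 71.8%.

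Clusters of at least 10 regions numbered 457 after aphidicolin and 437 in the rescue, and they held 6.20% of the aphidicolin list and 9.69% of the rescue list. Without chromosomes 5 and 21 there were 428 and 285 of them, with 6.27 and 5.59% of the regions, so the larger share in the rescue was not present there. The largest rescue cluster, chr5:8994601-11810200, spanned 2815.6 kb with 245 rescue regions, where 164 aphidicolin regions lay. Without those chromosomes the largest cluster had 41 regions after aphidicolin and 40 in the rescue. The 2 largest aphidicolin clusters, each with 41 regions, were chr18:34873001-35133400, with 23 rescue regions, and chr1:114509601-114778800, with 27. The 3 next were chr22:37480201-37820600 (38 and 23 rescue regions), chr3:10549601-10826400 (33 and 26) and chr5:141003801-141265400 (31 and 28). All 5 were thus places with many sites in the rescue also.

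**Figure D3:**
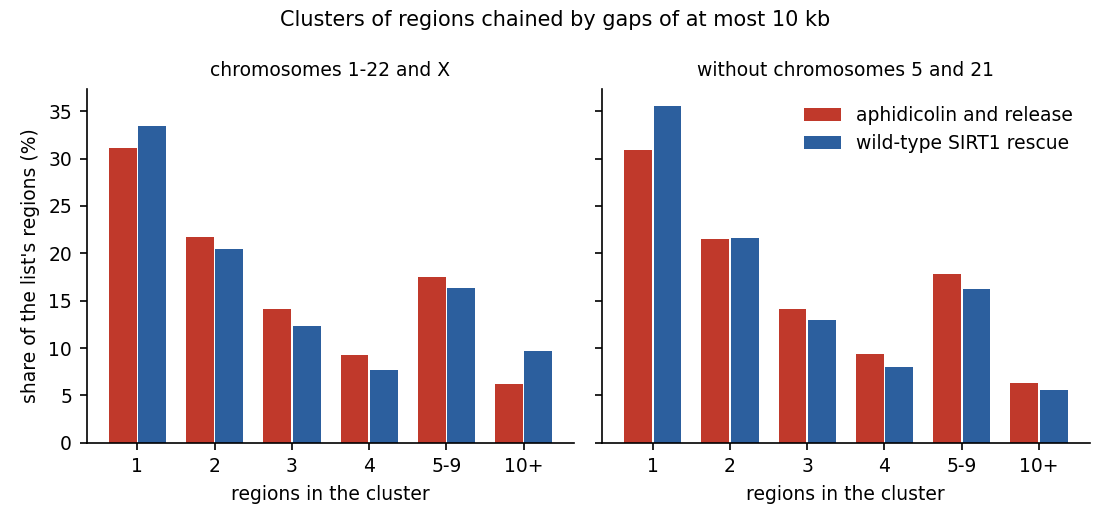
Share of each list's regions (%) by the size of the cluster they belonged to, with clusters chained by gaps of at most 10 kb and a size of 1 for regions in no cluster. Left, chromosomes 1 to 22 and X. Right, without chromosomes 5 and 21, where the share in clusters of 10 or more regions was 6.27% after aphidicolin and 5.59% in the rescue.

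Sites found only after aphidicolin often stood in a cluster with rescue sites. When both lists were chained together by the same 10 kb rule, they formed 51478 groups. Of these, 28009 (54.4%) held regions of both lists, 16368 (31.8%) held aphidicolin regions only and 7101 (13.8%) rescue regions only. The groups of 1 list were small: 13771 of the 16368 and 6328 of the 7101 were single regions. Of the 42408 aphidicolin regions that overlapped no rescue region, 22853 (53.9%) belonged to a group that held a rescue region, and of the 25291 such rescue regions 16932 (66.9%) belonged to one with an aphidicolin region. Within the groups of both lists, aphidicolin had more regions in 10751 (38.4%), the rescue in 4281 (15.3%) and the numbers were equal in 12977 (46.3%). An aphidicolin region without a partner lay a median of 10.8 kb from the nearest rescue region, and 30.9% lay within 5 kb. Isolated sites were few, with 1887 (4.45%) more than 100 kb from any rescue region. For scale, the median gap between neighbouring rescue regions was 11.4 kb, and 7.49% of the distances between their middles exceeded 100 kb. Whether the nearness to rescue regions is particular to these aphidicolin regions was not tested. A rescue region without a partner lay 7.4 kb from the nearest aphidicolin region, and 485 (1.92%) lay more than 100 kb away. Without chromosomes 5 and 21 the rescue values were 6.8 kb and 275 (1.34%), and the aphidicolin values 10.8 kb and 1728 (4.31%).

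Density per Mb followed the same chromosomal landscape in both lists. Over 2808 windows of 1 Mb with a region in either list, the numbers of regions correlated with r = 0.831, and over 2593 windows without chromosomes 5 and 21 with r = 0.951. These are correlations across windows, which are not replicates and share the genome's mappable sequence and the same control DNA. On the autosomes other than 5 and 21, density was 33.9 regions per Mb after aphidicolin and 24.7 in the rescue. Windows differed less from each other after aphidicolin. The SD of regions per window over its mean was 0.582 after aphidicolin and 0.718 in the rescue, or 0.581 and 0.666 without chromosomes 5 and 21. The ratio of the 2 values was 0.810 with all regions and 0.941 at equal list lengths.

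Windows that departed from this landscape were few. Each list was scaled to its total, 0.5 was added to each number, and the 2387 windows with at least 20 regions in both lists together were compared. In 45 windows (1.89%) the scaled density was over 2-fold higher after aphidicolin, and in 60 (2.51%) over 2-fold lower. Of the 60 lower windows 56 lay on chromosomes 5 and 21, as did 8 of the 45 higher ones. With these chromosomes left out, 27 of 2196 windows (1.23%) were over 2-fold higher and 5 (0.228%) over 2-fold lower, and 2012 (91.6%) lay within 1.5-fold. The balance of higher and lower windows moved with the measure: by covered length it was 104 higher and 72 lower, at equal list lengths 12 and 63, with windows of 500 kb 42 and 108, and with windows of 5 Mb 1 and 14.

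The first 50 Mb of chromosome 5 and the part of chromosome 21 from 31 Mb on were the main places with fewer sites after aphidicolin. In the first 50 Mb of chromosome 5 there were 1500 aphidicolin regions and 3924 rescue regions, 0.294 times as many after scaling. The depleted line had 2084 there and the T530A rescue 5183. On the rest of chromosome 5 there were 4329 and 3118, and the scaled ratio was 1.07. On chromosome 21 there were 1111 aphidicolin regions, 1685 in the rescue, 1384 in the depleted line and 2240 in the T530A rescue, a scaled ratio of aphidicolin to rescue of 0.506. From 31 Mb on there were 819 and 1373, and before it 292 and 312, a ratio of numbers of 0.936 (0.795 to 1.10). Windows before 31 Mb went both ways. Regions after aphidicolin and in the rescue numbered 16 and 73 at 22 to 24 Mb and 29 and 107 at 18 to 20 Mb. At 10 to 11 Mb they numbered 19 and 2, and at 26 to 27 Mb 21 and 5. The longest run of lower windows covered 15 to 44 Mb of chromosome 5, with 725 aphidicolin and 2581 rescue regions. Against its own density on the rest of chromosome 5, the first 50 Mb was dense in both rescue lists, with 78.5 against 23.8 regions per Mb in the rescue and 104 against 32.6 in the T530A rescue. The depleted line had 41.7 against 33.6 per Mb and aphidicolin 30.0 against 33.1, so the low scaled ratio went with a high density in the rescue and not with a loss relative to the rest of the aphidicolin list.

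Reads moved with these segments as well. Among the 64 places in the first 50 Mb of chromosome 5 where 1 region of each list met with at least 200 reads in both, the median log2 ratio of reads per kb was -0.49, and at 69 places on chromosome 21 it was -0.30. These log2 ratios, aphidicolin over rescue, were centred on the median of the 36385 one-to-one places. DNA copy number of the lines was not measured here, and its part in these segments was not tested.

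**Figure D4:**
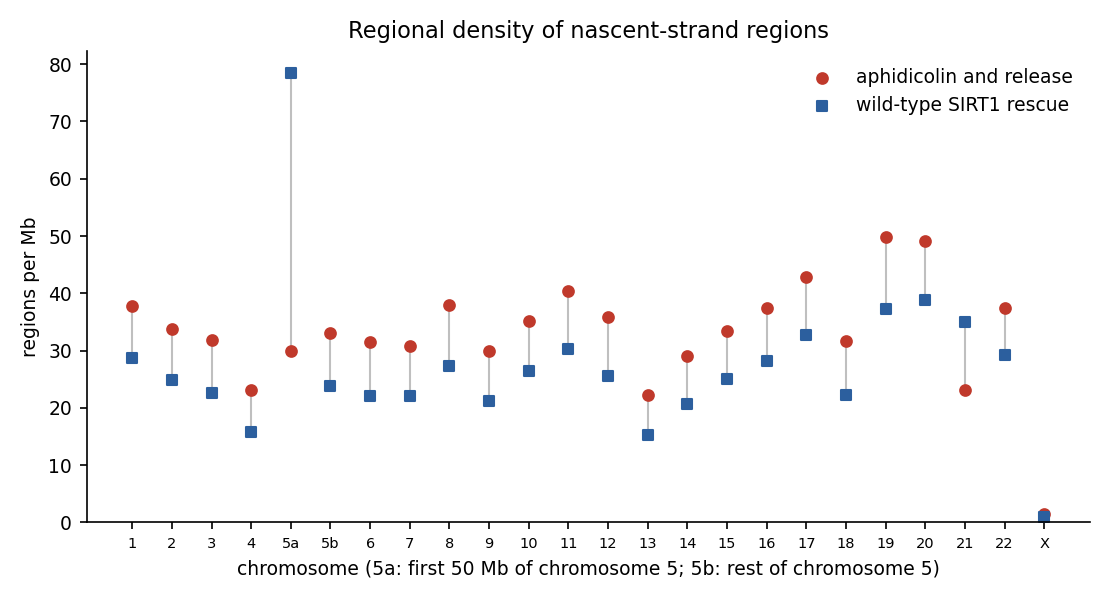
Regions per Mb on each chromosome, with the first 50 Mb of chromosome 5 (5a) apart from the rest of it (5b), for the aphidicolin list (circles) and the rescue list (squares). The rescue lay above aphidicolin in 5a and on chromosome 21, and below it in the other segments shown.

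Elsewhere a few windows stood out. On chromosome 12, 20 to 21 Mb held 18 aphidicolin and 46 rescue regions, a scaled log2 ratio of -1.78 without chromosomes 5 and 21. The depleted line had 22 regions there and the T530A rescue 64, the same order of the 4 lists as in the first 50 Mb of chromosome 5. On chromosome 17, 79 to 80 Mb held 12 aphidicolin regions, 30 in the rescue, 39 in the depleted line and 38 in the T530A rescue (log2 ratio -1.74), so that aphidicolin was the low list. The other 3 lower windows lay on chromosome 4 at 19 to 20 Mb (8 and 13 regions), chromosome 8 at 60 to 61 Mb (10 and 16) and the end of chromosome 16 (10 and 15).

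The windows with the highest ratios are given with their numbers, which the ranking itself sets far apart. On chromosome 21, 10 to 11 Mb held 19 aphidicolin and 2 rescue regions, with 13 in the depleted line and 4 in the T530A rescue. On chromosome 5, 101 to 102 Mb held 17 and 3, with 8 and 10 in the other lists. On chromosome 12, 78 to 79 Mb held 18 and 4, with 11 and 14. Next were chromosome 21 at 26 to 27 Mb, chromosome 3 at 151 to 152 Mb and chromosome 6 at 64 to 65 Mb, each with 21 aphidicolin and 5 rescue regions.

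Reads at shared sites were compared per kb. At the 36385 one-to-one places the log2 ratio had an SD of 0.35, and 90% lay between -0.54 and 0.60. The stronger places varied less, but a limit on reads in both lists leaves out sites that are strong in only 1. Of 5307 one-to-one places with at least 200 reads in both lists, 90% had a log2 ratio of reads per kb between -0.38 and 0.29, and the SD was 0.21. Only 2 (0.0377%) were over 2-fold higher after aphidicolin and 2 (0.0377%) over 2-fold lower. Without chromosomes 5 and 21 it was 2 (0.0398%) and 1 (0.0199%) of 5019. The higher ones were chr2:3698801-3699400, with 368 reads against 437 in a wider rescue region (log2 ratio 2.57), and chr15:101670401-101671600 (1.74). The lower ones were chr10:99436201-99439000 (-1.59) and chr21:9645801-9721000 (-1.09). In these 4 places the regions of the 2 lists differed in width, so reads per kb were taken over different lengths.

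The sites with most reads were common to the lists. The strongest shared region, chr8:86726401-86841400, held 30722 reads after aphidicolin and 30095 in the rescue. It was followed by chr4:49278001-49338800 (27814 and 25981 reads). Among regions found after aphidicolin and not in the rescue, chr1:161405801-161443600 held most reads, 7271, and was also in the depleted line (10879 reads) and the T530A rescue (7301). It was followed by chr1:228744401-228785000, with 5771 reads, and chr4:190475801-190537400, with 4971. The region chr21:9986201-10034600, with 4319 reads, was the one of the 5 strongest that none of the other 3 lists held. Among rescue regions without a partner, the strongest was chr17:79944401-79988200, with 2634 reads. The 5 strongest of these were all in the depleted and T530A lists too, and 3 of the 5 lay at 79 to 80 Mb of chromosome 17, the window named above. Whether the regions named in this paragraph lie in repeated sequence was not examined. Their read counts therefore cannot be taken as a measure of how often replication began there.

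H4K16ac is an acetylation of histone H4 that SIRT1 can remove and that marks open chromatin. SIRT1 phosphorylated at T530 (pSIRT1) and MCM2 phosphorylated at S139 (pMCM2), a part of the MCM complex, were mapped in wild-type HCT116 as well. These maps, like that of H4K16ac, came from neither of the 2 samples compared. In windows poor in H4K16ac the gain in sites was larger, as it was in windows poor in pSIRT1 or pMCM2 regions. The 1 Mb windows without chromosomes 5 and 21 were split into quintiles by the length covered by H4K16ac regions of unsynchronised HCT116. From the quintile with least to that with most, the median window held 20, 30, 39, 49 and 56 aphidicolin regions and 13, 20, 27, 38 and 43 rescue regions. Summed over windows, there were 1.54, 1.48, 1.40, 1.29 and 1.28 times as many regions after aphidicolin. Split by pSIRT1, the ratio was 1.61 in the poorest and 1.26 in the richest quintile, and split by pMCM2 it was 1.53 and 1.28, so the gradient was not particular to H4K16ac. The median spacing fell from 24.4 kb in the poorest quintile to 11.2 kb in the richest after aphidicolin, and from 35.5 to 14.3 kb in the rescue. The share of aphidicolin regions with no rescue partner was 61.9% in the poorest quintile and 31.3% in the richest, and that of rescue regions with no aphidicolin partner fell likewise, from 44.3 to 23.7%.

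The gradient over H4K16ac did not hold under every choice, and those over pSIRT1 and pMCM2 were not tried at equal list lengths. At equal list lengths the ratio was 1.01 in the poorest quintile and 1.09 in the richest, so its direction turned, and with chromosomes 5 and 21 kept in it was 1.21 and 1.27. By covered length it was 1.06 and 0.838. With chromosomes 5 and 21 kept in, the ratio split by pSIRT1 was 1.31 and 1.25, and split by pMCM2 1.35 and 1.26. By covered length without these chromosomes it was 1.11 and 0.833 for pSIRT1, and 1.05 and 0.843 for pMCM2. Relative to its total, the T530A rescue had a smaller gradient against the same rescue list, with median log2 ratios of 0.11 in the poorest and -0.02 in the richest quintile, where aphidicolin had 0.21 and -0.10. The depleted line had -0.07 and 0.07. These comparisons share the rescue list, and their difference was not tested.

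**Figure D5:**
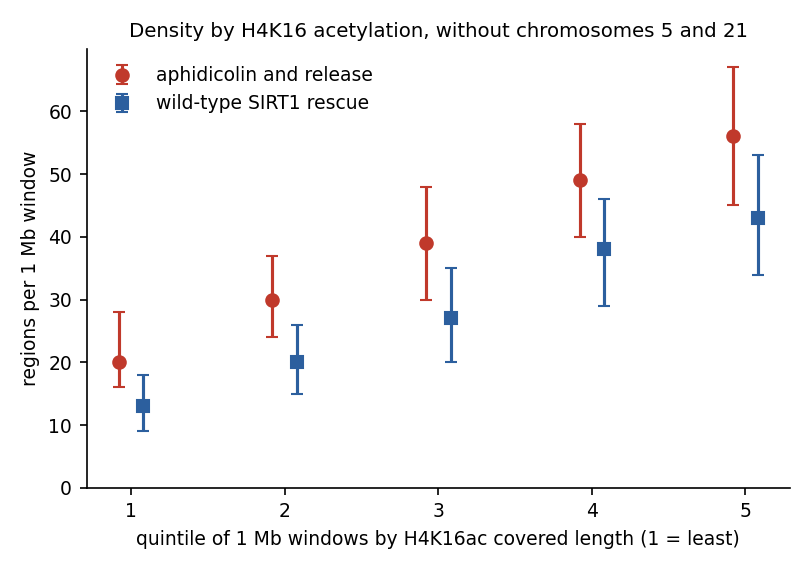
Regions per 1 Mb window in quintiles of windows ordered by length covered by H4K16ac regions, without chromosomes 5 and 21, for the aphidicolin list and the rescue list. Points are medians and whiskers the middle 50% of windows. Both rise with the mark, from 20 to 56 after aphidicolin and from 13 to 43 in the rescue.

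Sites found in both samples more often carried the chromatin features mapped in HCT116 than sites found in 1. To keep width alike, regions of 1 to 3 kb were compared. H4K16ac overlapped 73.7% of the shared aphidicolin regions and 49.2% of those without a rescue partner. Regions of pSIRT1 overlapped 56.5 and 28.7%, and those of pMCM2 47.9 and 29.3%. Rescue regions showed the same order, with 74.2 and 51.6% for H4K16ac, 56.0 and 32.3% for pSIRT1 and 48.1 and 31.3% for pMCM2. Between the regions without a partner the order of the 2 samples turned with width. From 1 to 3 kb those of the aphidicolin list overlapped each ChIP list slightly less often than those of the rescue. From 3 to 10 kb they did so more often, with 68.6 against 59.8% for H4K16ac, 47.1 against 42.7% for pSIRT1 and 45.7 against 42.7% for pMCM2. Of these regions, 408 of 8865 in the aphidicolin list and 2583 of 11991 in the rescue lay on chromosomes 5 and 21. The overlaps without these chromosomes are not given here. The ChIP lists came from unsynchronised wild-type cells with no aphidicolin named in their labels.

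The sites without a rescue partner were also found less often in the other lists. Of aphidicolin regions of 1 to 3 kb alone, 33.2% were in the depleted line and 36.1% in the T530A rescue, against 67.3 and 74.5% of the shared ones. For rescue regions alone the shares were 39.3 and 45.6%. In K562, 39.9% of the aphidicolin regions alone and 56.0% of the shared ones overlapped a nascent-strand region of early, middle or late S phase.

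Chromosome X carried few sites in either list. There were 230 regions after aphidicolin (1.48 per Mb) and 158 in the rescue (1.02 per Mb), with 353 in the T530A rescue and 1123 in the depleted line. It therefore adds little to the values above.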

How the data were processed

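The submitters' processing notes give hg19 as the build and list MACS and SICER as tools, but not which list each made. Sheared DNA from HCT116 is named as the control, per the labels. What aligner and thresholds were used is not given in the sources used here. Per library, the authors deposited 1 list of regions, with a whole number in each row read here as a count of reads, unscaled between libraries, on a 200 bp grid with gaps of at least 800 bp. The H4K16ac list gives the authors' peak score, and only its coordinates were used. The other 11 lists, all K562 ChIP lists, and 2 genomic controls were not used.

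Regions on chromosomes 1 to 22 and X were kept, and spacing, clusters, windows and overlaps were computed with Python 3.11.15, numpy 2.4.6, pandas 2.3.3 and scipy 1.17.1, with plots by matplotlib 3.10.9. The steps were tested on simulated data. Named were the 5 regions with most reads in each class. At shared regions, the places past 2-fold among the 5 highest and 5 lowest were named. Windows, with neighbours joined, came from the 5 highest and lowest with and without chromosomes 5 and 21, and the next with an equal value. The fullest of the 5 stretches free of the other list and the largest clusters were also named. The strongest regions and these windows are given in part. Genes, fragile-site lists and sequences at the regions were not analysed here, since the reference tables used are on GRCh38. The 2 lists, the classes and the lists compared were chosen with earlier results of these data known. Alternatives were other overlap rules, linking gaps, window sizes, equal list lengths, read limits and covered length. Leaving out chromosomes 5 and 21 for the shares, and all alternatives for the H4K16ac quintiles and the long stretches, were chosen after seeing the data, as was leaving out these chromosomes at equal list lengths.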

Additional observations from a re-analysis of the deposited data

How the results depend on the processing

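With 1 library a group, an alternative is set against counting error or the printed digits, and a number of windows against 1.5 times itself. Of 60 alternatives, 5 stayed within that margin, 45 moved and 10 turned the direction. The ratio of region numbers, 1.30, was 1.35 with regions within 1 kb merged, 1.80 by reads per kb, 1.29 by clusters and 1.37 without chromosomes 5 and 21, and turned to 0.825 by reads and 0.845 by covered length. The share of aphidicolin regions shared was 53.2% with an overlap of 50% of the shorter region, 58.4% within 1 kb, 50.2% for the middle 200 bp, 54.8% in the 50% of regions with most reads, 63.2% at equal list lengths and 55.5% without chromosomes 5 and 21. The rescue share was 62.7, 68.2, 49.97, 64.3, 58.9 and 68.8% in the same order. The spacing ratio, 0.849, was 0.965 from end to start, 0.791 with merging, 0.676 by reads per kb, 0.793 without chromosomes 5 and 21, 1.01 at equal list lengths and 0.967 with both. The difference in clustering was 3.64 points with gaps up to 20 kb, 4.47 with merging and 4.65 without chromosomes 5 and 21. It turned to -0.83 with gaps up to 5 kb, -2.44 at equal list lengths and -5.11 with a scaled gap. At equal list lengths without chromosomes 5 and 21 it was also -0.83. Windows past 2-fold, 105 in all, numbered 15 with windows of 5 Mb, 176 by covered length, 32 without chromosomes 5 and 21, 150 with windows of 500 kb and 75 at equal list lengths. The ratio of coefficients of variation was 0.814 at 500 kb, 0.806 at 5 Mb, 0.831 by covered length, 0.941 at equal list lengths and 0.872 without chromosomes 5 and 21. The ratio of the poorest to the richest H4K16ac quintile, 1.20, was 1.26 by covered length, 1.15 with merging and 1.50 by reads per kb, and turned to 0.929 at equal list lengths and 0.956 with chromosomes 5 and 21. The ratio of stretches over 250 kb, 0.562, was 0.999 at equal list lengths, 0.554 without chromosomes 5 and 21 and 0.520 by reads per kb. At equal list lengths without chromosomes 5 and 21 it was 1.06. The fewer aphidicolin regions at equal list lengths are by construction, and other causes were not tested. No paired analysis was possible because each group had 1 library.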
